A study of Drosophila melanogaster with 24 samples.

Results

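The heat ramp in flies from the fluctuating 25 °C regime was read on 6 of the 24 arrays of the series, 3 of ramped and 3 of unramped males, chosen by the regime and assay temperature in their titles. All were male *D. melanogaster* of one laboratory stock that was founded from flies collected in Denmark. They were reared from egg to an adult age of 6 days in 1 thermal cabinet whose temperature rose and fell each day around a mean of 25 °C, and were moved to a constant 20 °C shortly before the assay. The ramped males were then warmed from 20 to 35 °C at 0.1 °C per minute, while the unramped males stayed at 20 °C, and both were snap frozen at the same moment. Vials held 20 males, so that each array measured a pool. Replicates are therefore pools from a single cabinet, and a p-value measures only the spread between such pools. The ramped vials shared a water bath and a single run, and the unramped vials stood in a separate control bath. The effect of the ramp and that of the bath therefore cannot be told apart. The question was which transcripts change while flies are warmed towards their upper thermal limit. It was also asked whether the change differs in males reared at a constant 25 °C or in a fluctuating regime with a mean of 15 °C. Those males came from separate cabinets, were moved to 20 °C and were ramped or kept unramped in the same way. The series also held males from a constant 15 °C, against which no difference was tested.

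When a fly is heated, unfolded proteins draw chaperones away from the heat shock factor Hsf, which then binds DNA and switches on a small set of genes strongly. The best known products are the heat shock proteins of the Hsp70 family and the small heat shock proteins, which hold or refold damaged proteins. Cochaperones pass clients between Hsp70 and Hsp90, and the CCT chaperonin folds actin and tubulin in its ring.

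Each value is an expression level on the log2 scale, so that a change of 1 is a doubling, and each probe set stands for a transcript or a few. A change is the mean of the ramped minus that of the unramped arrays, with its standard error (SE) from a linear model with a moderated variance (limma) over 8 groups. A probe set is called, and described as having risen or fallen, when its adjusted p (Benjamini-Hochberg over 18769 probe sets) is under 0.05. The model used 23 arrays. A ramped array of the 15 °C fluctuating flies was left out, because it correlated with the other arrays at only 0.208 to 0.216, while those correlated with each other at 0.969 or more. It is not among the 6 arrays of this ramp, but with it the shared spread grew, from a median SE of 0.106 to 0.36. Between ramped and unramped arrays r was 0.989 to 0.991 and within either group 0.995 to 0.998, and the median level of the 6 arrays lay between 6.57 and 6.60. In pools of flies, fewer cells of a type and less RNA per cell cannot be told apart. The males carried their defining transcripts: the 11 accessory gland markers averaged 11.6 to 11.9 on each array and 14 testis markers 9.99 to 10.3, while 12 egg shell and yolk markers averaged 4.75 to 5.07. Not all of the 12 were that low: Cp15 and Yp3 had means of 7.33 and 7.08 without the ramp, and Cp18 rose with it.

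Ramping called 3116 probe sets (16.6% of those tested), of which 1452 (7.74%) were higher and 1664 (8.87%) lower. The largest changes were rises. By more than 2 log2 units 47 rose and 9 fell, by more than 3 units 16 rose and 0 fell, and by more than 4 units 10 rose. Most calls were small: 2799 of the 3116 (89.8%) changed by less than 1 log2 unit, with a median rise of 0.48 and a median fall of 0.44 below the unramped level. The median change over all probe sets was -0.02. In 5719 of the 18769 probe sets (30.5%) the 3 ramped and 3 unramped arrays did not overlap, so that a gap alone is common. Counting 1 probe set for each of 11982 genes, 1164 genes rose (9.71%) and 1408 fell (11.8%). Counts in the gene lists below are to be read beside these shares. On all 24 arrays 191 probe sets rose and 181 fell, and of 157 called genes that met the naming rule, 112 had an adjusted p of 0.05 or more there.

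**Figure D1:**
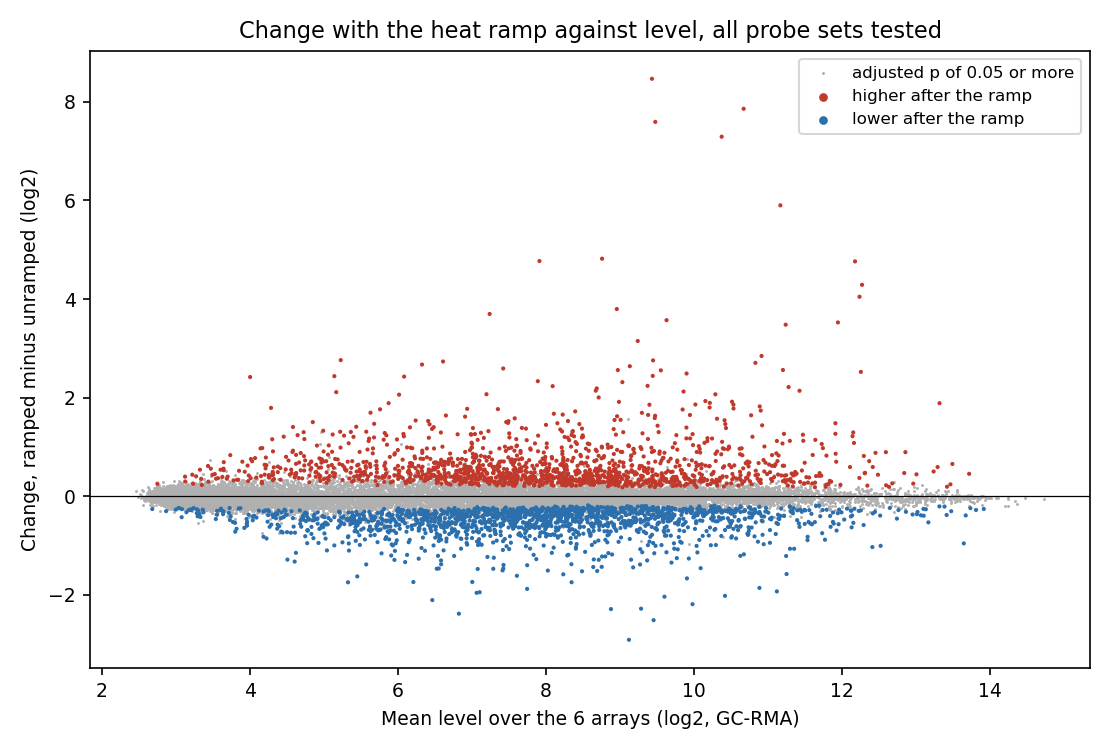
Change with the heat ramp (ramped minus unramped, log2) against the mean level over the 6 arrays (log2) for 18769 probe sets, 1 point each. Red points were called higher (1452), blue points lower (1664), and the 16 rises beyond 3 log2 units have no counterpart among the falls.

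Classical heat shock genes were among the largest rises. Hsp68, an inducible member of the Hsp70 family, read 8.29, 8.14 and 8.24 on the unramped arrays and 14.12 on each ramped array. The ramped values agreed to the second decimal, near the 14.8 that was the highest value of any probe set on the 6 arrays. The change was 5.90 ± 0.07 (SE, adjusted p = 8.44e-23). No fold is given, since the arrays carry no mark of saturation by which to tell whether the ramped level is a bound. Hsp26, a small heat shock protein, went from 10.17, 10.16 and 10.07 to 14.44, 14.40 and 14.41, a rise of 4.29 ± 0.12 (adjusted p = 7.78e-17, but 0.0626 on all 24 arrays). Hsp27, another small heat shock protein, went from 10.16, 10.21 and 10.19 to 13.65, 13.72 and 13.77, a rise of 3.52 ± 0.08 (adjusted p = 2.46e-18). None of these genes had an unramped array near a ramped one. The single largest rise of a named gene was that of the non-coding RNA alphagamma-element CR32865, which in the reference annotation lies between Hsp70Ba and Hsp70Bbb. Its level went from 5.83, 5.69 and 5.54 to 13.22, 13.29 and 13.33, a rise of 7.59 ± 0.13 (adjusted p = 1.69e-20). The Hsp70 genes themselves have no probe set that carries a single symbol. Beside CR32865, the only probe sets that rose by more than 7 log2 units were 3 that carry several symbols each, which rose by 7.29 to 8.47 and are not assigned to a gene here.

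Of 31 heat shock protein genes 18 were measured, and 9 rose and 0 fell (all genes: 9.71% and 11.8%). Among those not measured, for want of a probe set with a single symbol, were the Hsp70 genes and Hsp83, the cytosolic Hsp90. Hsp22, Hsp23, Hsp67Ba and Hsp67Bc were not measured either. The median change of the 18 measured genes was 0.42, beside -0.02 over all genes. On all 24 arrays 2 of the 9 were called. The rises fell into steps. Below Hsp68, Hsp26 and Hsp27 came Hsp110, an exchange factor of Hsp70, with 1.92 ± 0.08 (adjusted p = 2.25e-13) and the small heat shock protein l(2)efl with 1.22 ± 0.08 (adjusted p = 2.09e-10; its other 2 probe sets changed by 0.98 and 1.54). The chaperones of the mitochondrion rose less than 1 unit, with 0.98 ± 0.08 for Hsp60A and 0.86 ± 0.06 for Hsc70-5. Hsc70-3, the Hsp70 of the endoplasmic reticulum (ER), rose by 0.71 ± 0.09, and Hsc70-4, the constitutive Hsp70 of the cytosol, by 0.66 ± 0.08. Hsc70-4 was already at 13.19, 13.09 and 13.23 without the ramp and reached 13.76, 13.81 and 13.91.

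The other 9 measured heat shock protein genes were not called. CG4461, which has a small heat shock domain and lies next to Hsp26 in the reference annotation, read 11.10, 10.86 and 11.18 without and 11.14, 11.23 and 11.32 with the ramp. These values overlapped, and the change was 0.18 ± 0.09 (adjusted p = 0.182). Changes of CG13133, CG7409, Hsc70-1, Hsc70-2, Hsp60B, Hsp60C, Hsp60D and the mitochondrial Hsp90 Trap1 lay between -0.07 and 0.19. Hsf itself read 9.75, 9.63 and 9.72 without and 9.82, 9.92 and 9.89 with the ramp. All its ramped values were the higher ones, as in 2561 of 18769 probe sets, but the change of 0.18 ± 0.07 was not called (adjusted p = 0.0771).

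**Figure D2:**
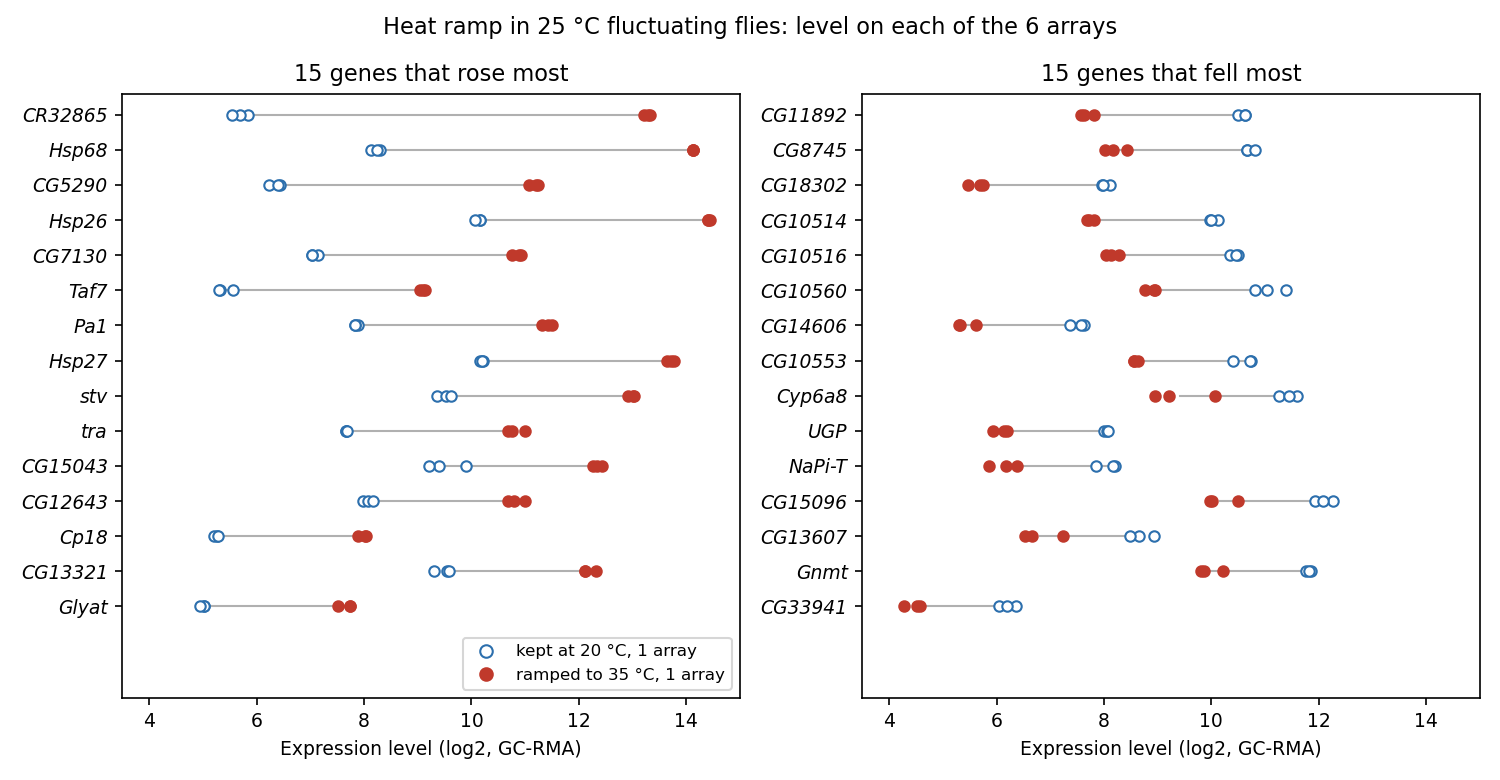
Expression level (log2) on each of the 6 arrays for the 15 genes that rose most (left) and the 15 that fell most (right) among called genes whose groups do not overlap, which the choice requires. Open blue circles are arrays of unramped flies at 20 °C, filled red circles arrays of ramped flies at 35 °C, and grey lines join the group means; the 3 ramped arrays of Hsp68 lie on one point, at 14.12.

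Cochaperones, the partners of these proteins, rose too: 12 of 21 measured genes rose and 0 fell, with a median change of 0.89 (3 rose on all 24 arrays). CG7130, a J-domain protein of the kind that delivers clients to Hsp70, went from 7.13, 7.03 and 7.03 to 10.89, 10.76 and 10.93, a rise of 3.80 ± 0.10 (adjusted p = 7.78e-17). The groups were more than 3 units apart. The gene beside it, CG7133, also with a J-domain, rose by 0.96 ± 0.08. DnaJ-1, a J-domain partner of Hsp70, rose by 2.52 ± 0.06, from a level of 10.89, 11.07 and 11.04 to 13.48, 13.53 and 13.55. Of 9 J-domain genes measured 4 rose. starvin (stv), a BAG-domain cochaperone, went from 9.36, 9.53 and 9.62 to 12.92, 13.02 and 13.01, a rise of 3.48 ± 0.07 (adjusted p = 3.21e-19, but 0.0863 on all 24 arrays).

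Partners of Hsp90, whose cytosolic gene Hsp83 was not measured, rose as well. CG1416, which carries the synonym Aha1, the activator of the Hsp90 ATPase, rose by 2.14 ± 0.07, and unc-45, a myosin chaperone, by 2.23 ± 0.09. Cdc37, which brings kinases to Hsp90, rose by 1.57 ± 0.07, the immunophilin Fkbp59 by 0.96 ± 0.10 and nudC by 1.04 ± 0.06. p23, a further Hsp90 cochaperone, changed by 0.04 ± 0.06 (adjusted p = 0.79), from a level of 12.06 to 12.24 without the ramp. Outside the list, and picked after their values were seen, Stip1, the adaptor that links Hsp70 and Hsp90, rose by 2.56 ± 0.07, mora, which carries the synonym CHORD, by 2.56 ± 0.07 and Sgt1 by 1.89 ± 0.06.

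All 8 subunits of the CCT chaperonin rose, by 1.16 to 1.93, and 0 of 6 subunits of prefoldin, which hands clients to that ring, were called. CCT3 had the highest rise, from 9.19, 9.11 and 9.27 to 11.12, 11.09 and 11.16 (1.93 ± 0.12, adjusted p = 1.41e-10). CCT6 had the lowest, from 8.91, 8.59 and 8.91 to 9.967, 9.927 and 9.998 (1.16 ± 0.13, adjusted p = 7.58e-07). Even in CCT6 the groups were 1 unit apart. The prefoldin subunits changed by -0.09 to 0.20, the highest being Pfdn6 (adjusted p = 0.0911). On all 24 arrays the adjusted p of the 8 CCT subunits ran from 0.0683 (CCT5) to 1, so that none was called there.

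Several genes outside the chaperone lists rose as strongly. CG5290 went from 6.23, 6.44 and 6.39 to 11.20, 11.08 and 11.24, a rise of 4.82 ± 0.12 (adjusted p = 2.59e-17). Taf7, a subunit of the general transcription factor TFIID, went from 5.32, 5.30 and 5.56 to 9.10, 9.13 and 9.05, a rise of 3.70 ± 0.10. In both genes every ramped array was over 3 units above every unramped one. Pa1 rose by 3.57 ± 0.115 and transformer (tra), a splicing regulator of sex determination, by 3.15 ± 0.08, from 7.66, 7.67 and 7.68 to 11.01, 10.76 and 10.69. CG12643 rose by 2.75 ± 0.11. Glyat, named for glycine N-acyltransferase, rose by 2.67 ± 0.10 from a low level of 4.94 to 5.03. Below the first 15 genes, and picked after their values were seen, Mst85C rose by 2.64 ± 0.11, Slc45-1 by 2.55 ± 0.105, Rnf11 by 2.49 ± 0.34 and Plzf by 2.33 ± 0.10. The single ramped values of Rnf11 were 10.48, 11.60 and 11.37, the widest spread among these, and its other probe set changed by -0.19.

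Some of the risen genes lie side by side in the reference annotation. Of 17 measured neighbours of the 15 genes that rose most, 7 rose and 1 fell, beside 9.71% and 11.8% of all genes. CG12560, beside Glyat, rose by 2.19 ± 0.09. CG15043 went from 9.39, 9.89 and 9.21 to 12.26, 12.34 and 12.42 (2.85 ± 0.15, adjusted p = 9.71e-12, but 0.309 on all 24 arrays), and CG15044 beside it rose by 1.32 ± 0.22. CG13321 rose by 2.71 ± 0.12 (adjusted p = 6.55e-13, but 0.132 on all 24 arrays), and CG44251, with 1 unmeasured gene between them, by 2.12 ± 0.13. Cp18, an egg shell protein, went from 5.27, 5.21 and 5.27 to 8.03, 7.89 and 8.03, a rise of 2.73 ± 0.06 (adjusted p = 5.32e-18), while the egg shell genes Cp15, Cp19 and Cp16 that follow it changed by 0.10, 0.04 and 0.03 and were not called. Of the 12 egg shell and yolk markers measured Cp18 was the only one called.

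Prolyl and lysyl hydroxylases were a further group. Of 10 measured genes 4 rose and 1 fell, and 8 of the 10 are prolyl 4-hydroxylase alpha subunits, which modify collagen. Plod, a lysyl hydroxylase, went from 7.86, 7.86 and 7.92 to 10.16, 10.05 and 10.38, a rise of 2.31 ± 0.10 (adjusted p = 4.03e-13). PH4alphaEFB rose by 1.02 ± 0.09 and PH4alphaSG1 by 0.97 ± 0.15. The 1 that fell was Hph, the prolyl hydroxylase that marks the hypoxia factor for decay, by -0.81 ± 0.08, while its other probe set changed by 0.09.

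Signalling and redox genes moved in both directions. Of 20 stress signalling genes 4 rose and 4 fell (20.0% each), beside 9.71% and 11.8% of all genes. The pseudokinase tribbles (trbl) led the rises, from 7.51, 7.51 and 7.60 to 9.37, 9.10 and 9.31 (1.72 ± 0.09, adjusted p = 8.56e-12). Both kinases that slow translation under stress rose, PEK by 1.01 ± 0.08 and Gcn2 by 0.74 ± 0.09, and asparagine synthetase (AsnS) rose by 0.74 ± 0.15. Of 11 genes of amino acid stress, Gcn2 and AsnS among them, 3 rose (27.3%) and 4 fell (36.4%), with a median change of -0.01. Nmdmc, a folate enzyme of the mitochondrion, fell most, by -1.35 ± 0.15, followed by the amino acid transporter mnd with -0.60 ± 0.12. Gclm, the modifier subunit of glutathione synthesis, rose by 0.92 ± 0.09 and thioredoxin reductase (Trxr1) by 0.87 ± 0.06, while Gclc, the catalytic subunit of glutathione synthesis, fell by -0.27 ± 0.09 and Gtpx by -0.25 ± 0.07. The other 9 of 13 measured redox genes were not called. Of 34 glutathione S-transferases 11 rose (32.4%) and 5 fell (14.7%), with a median change of 0.05 (0 of 34 called on all 24 arrays). GstE1 had the largest rise, from 9.97, 9.93 and 10.06 to 11.97, 11.68 and 11.76 (1.82 ± 0.13, adjusted p = 1.25e-09). GstE5, GstE6 and GstE7, which lie next to each other, rose by 0.73, 1.07 and 0.97, and 3 of 4 GstT genes fell, GstT4 most with -0.55 ± 0.10. TotC, a secreted stress peptide, went from 8.32, 9.35 and 7.75 to 9.02, 9.64 and 12.33. Its groups overlapped and a single ramped array was high, and its call (1.86 ± 0.62, adjusted p = 0.0428) was lost with 1 array left out (adjusted p up to 0.304).

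Genes of protein folding in the ER and of the proteasome moved in both directions. Of 27 ER folding genes 5 rose (18.5%, beside 9.71% of all genes) and 8 fell (29.6%, beside 11.8%). Their median change was -0.12 (1 fell and 0 rose on all 24 arrays). Gp93, the Hsp90 of the ER, rose by 0.66 ± 0.09 and calnexin (Cnx99A) by 0.38 ± 0.06. Edem2, which takes misfolded glycoproteins out of the ER, fell from 6.73, 6.90 and 7.12 to 5.50, 5.80 and 5.66 (-1.27 ± 0.11), and the translocon subunits Sec61alpha and Sec61gamma by -0.68 ± 0.11 and -0.47 ± 0.07. Of 14 measured subunits of the regulatory particle of the proteasome 8 fell and 1 rose, with a median change of -0.30, and of the 31 genes of the proteasome and ubiquitin list 0 were called on all 24 arrays. Rpn11, its deubiquitinase, fell by -0.47 ± 0.07 and Rpt4, one of its ATPases, by -0.39 ± 0.09. Of 12 core subunits 2 fell and 0 rose. In the same list the autophagy receptor ref(2)P rose by 0.89 ± 0.06, and the polyubiquitin genes Ubi-p5E and Ubi-p63E by 0.59 ± 0.12 and 0.24 ± 0.06 (for the last, adjusted p up to 0.0531 with 1 array left out). Over the whole list 4 of 31 genes rose and 10 fell, with a median change of -0.14. In 25 °C constant flies 4 rose and 2 fell, with a median of 0.02. The difference between these regimes was called for 0 of the 31.

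**Figure D3:**
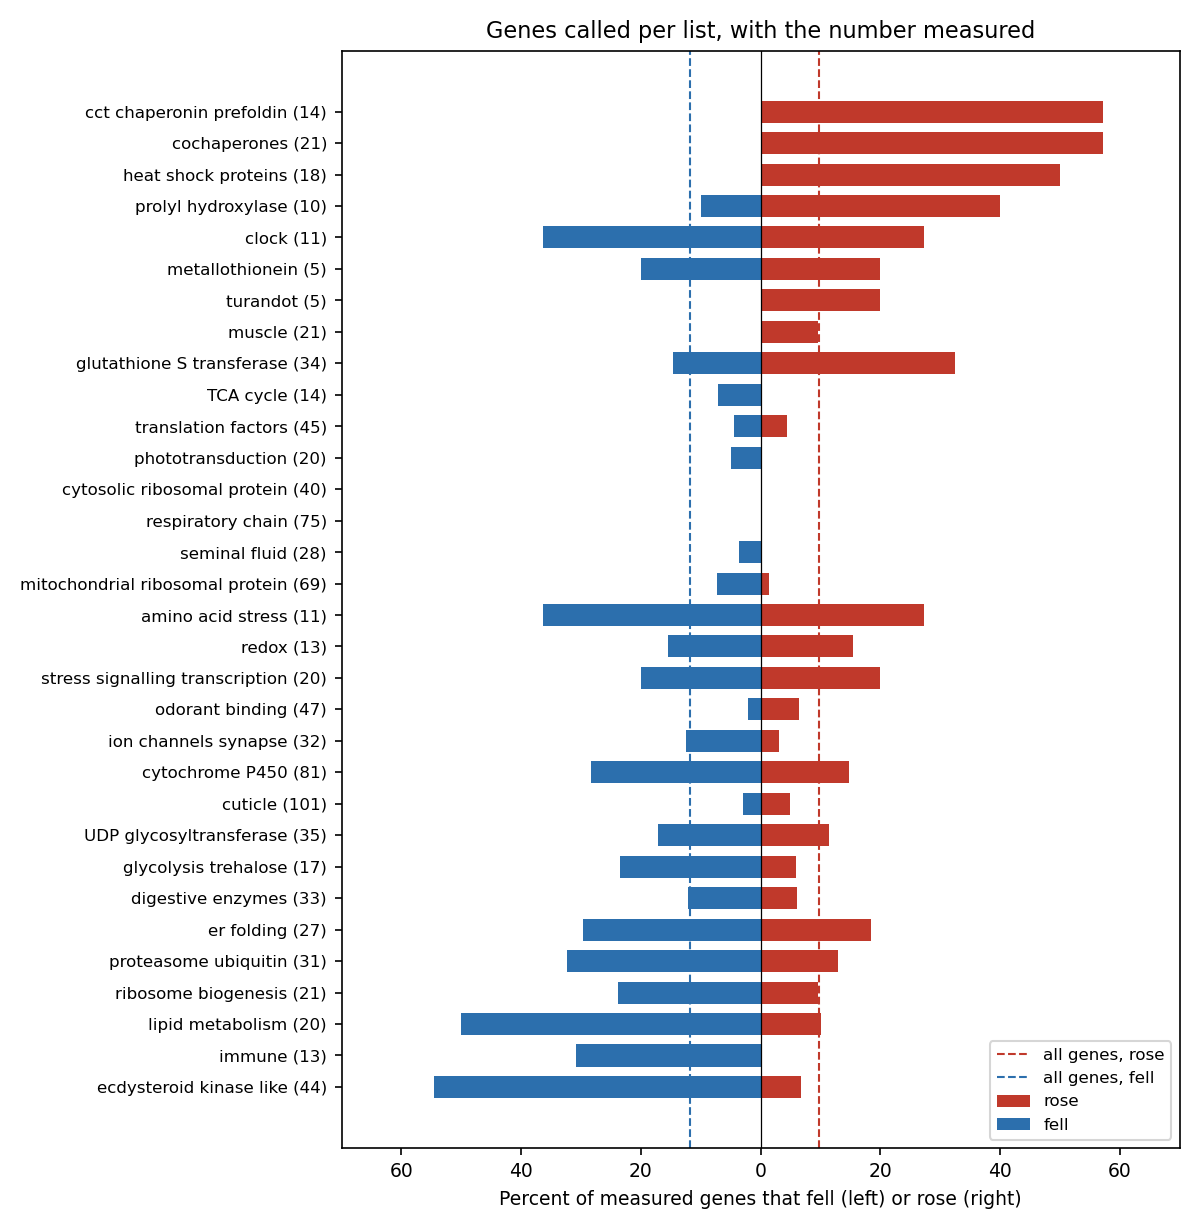
Percent of measured genes that rose (red, right) or fell (blue, left) with the heat ramp in each of 32 gene lists, ordered by median change, with the number of genes measured in brackets. Dashed lines mark the same percentages over all 11982 genes (9.71% rose, 11.8% fell); of the 3 chaperone lists 9 of 18, 8 of 14 and 12 of 21 genes rose, and the ecdysteroid kinase-like genes at 54.5% fallen.

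Among the largest falls were ecdysteroid kinase-like genes, a family named for its likeness to an insect enzyme that phosphorylates moulting hormone. Of 44 measured members 24 fell and 3 rose, with a median change of -0.46 (on all 24 arrays 8 fell and 1 rose). CG11892 fell most of all genes named, from 10.63, 10.49 and 10.62 to 7.82, 7.62 and 7.57, a change of -2.91 ± 0.10 (adjusted p = 3.12e-15), or 7.52-fold lower. CG10514 went from 9.98, 10.12 and 9.99 to 7.72, 7.69 and 7.81 (-2.29 ± 0.11), and CG10560 from 10.81, 11.39 and 11.03 to 8.77, 8.94 and 8.96 (-2.19 ± 0.12). In all of these every ramped array lay more than 1.5 units under every unramped one. CG10553 fell by -2.04 ± 0.10.

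A single run of neighbouring genes held most of these falls. In the reference annotation 26 members follow one another with no other annotated gene between them, and 25 of them were measured: 18 fell, 2 rose and 5 were not called, with a median change of -0.66. The other 19 measured members lie elsewhere, and there 6 fell and 1 rose, with a median of -0.25. Within the run the changes varied from gene to gene. CG11891, at one end, rose by 1.48 ± 0.15 (adjusted p = 2.98e-07), from 7.38, 7.57 and 7.30 to 8.93, 9.07 and 8.69, while CG11878 beside it fell by -0.66 ± 0.14. CG13658 rose by 0.70 ± 0.14 between CG31104, with -1.26 ± 0.16, and CG11893, with -0.78 ± 0.15. At the far end CHKov1 and CHKov2 fell by -0.43 ± 0.10 and -0.32 ± 0.07. The 1 member that rose outside the run was CG16898, by 1.80 ± 0.14. Near-identical copies in such a family can share probes, and how far they do was not tested.

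**Figure D4:**
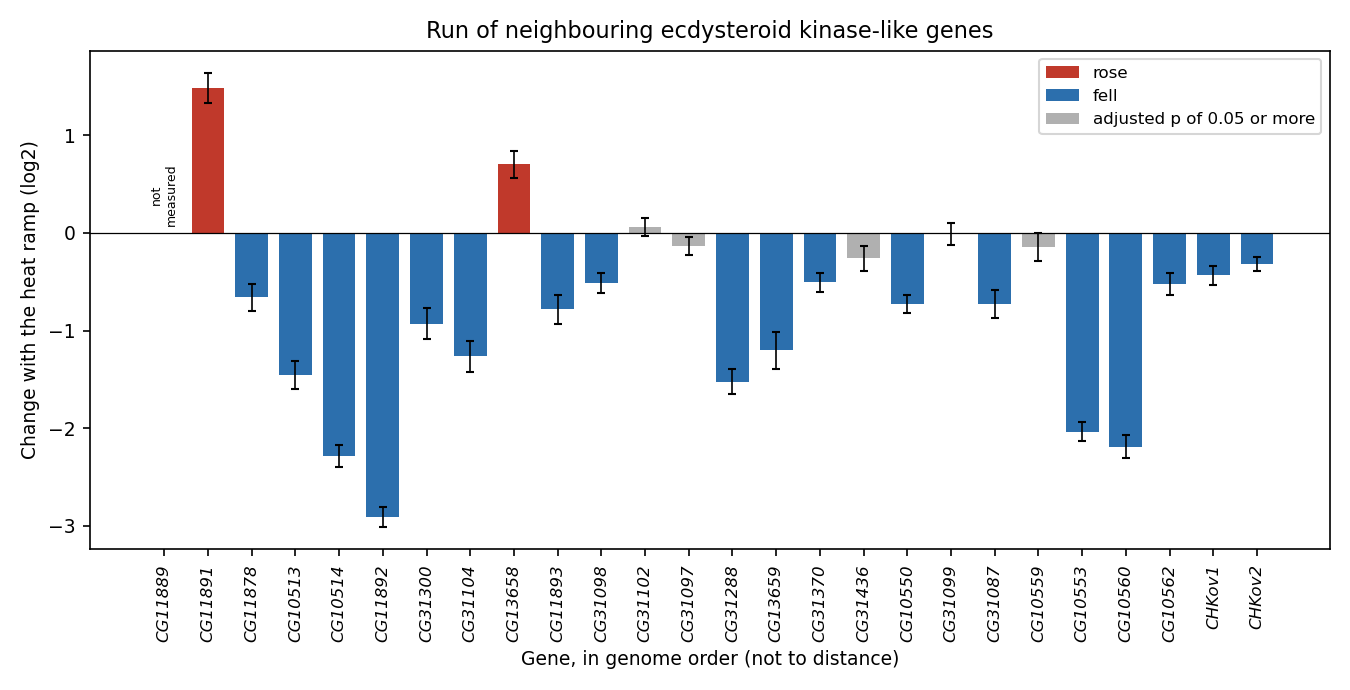
Change with the heat ramp (log2, bars, with the SE as error bars) for the 26 ecdysteroid kinase-like genes of one run, in genome order and not to distance. Blue bars fell (18), red bars rose (2), grey bars were not called (5), and CG11889 was not measured; the lowest bar is CG11892 at -2.91.

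Genes outside the family were also among the largest falls, some of them of metabolism and transport. CG8745 and CG18302 fell by more than any member of the family but CG11892. CG8745, which has no role given here, went from 10.66, 10.67 and 10.81 to 8.02, 8.42 and 8.17 (-2.51 ± 0.12, adjusted p = 1.79e-12), CG18302 fell by -2.38 ± 0.12 and CG10516 by -2.28 ± 0.07. The groups of CG8745 were more than 2 units apart. UGP, which makes UDP-glucose, fell by -1.96 ± 0.145, Gnmt, which uses up S-adenosylmethionine, by -1.86 ± 0.16, and the phosphate cotransporter NaPi-T by -1.95 ± 0.17. CG14606, CG15096, CG13607 and CG33941 fell by 2.11, 1.93, 1.88 and 1.75 log2 units. Cyp6a8, a cytochrome P450, fell from 11.26, 11.60 and 11.44 to 9.21, 8.95 and 10.07 (-2.02 ± 0.30), and 1 ramped array lay higher than the other 2 by close to 1 unit. Of 81 cytochrome P450 genes 23 fell (28.4%) and 12 rose (14.8%), beside 11.8% and 9.71% of all genes. On all 24 arrays 4 fell and 1 rose. Lip4, a lipase, fell by -1.29 ± 0.12. It is separated by CG18301, which was not called (-0.20 ± 0.14), from CG18302.

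Of 20 lipid genes 10 fell and 2 rose, with a median change of -0.33 (1 fell and 0 rose on all 24 arrays). Of 4 fat body markers 2 fell as well, the lipoproteins Apoltp by -0.63 (adjusted p = 0.000603) and apolpp by -0.24 (adjusted p = 0.0116), while Lsp2 changed by -0.10 and Fbp1, at a level near 4.1, by -0.02. The mean of the 4 markers was 10.04 to 10.24 without and 9.80 to 10.03 with the ramp, and its part in the falls of lipid genes was not tested. ACC, which commits acetyl-CoA to fatty acid synthesis, fell from 12.65, 12.26 and 12.44 to 11.88, 11.74 and 11.84 (-0.63 ± 0.10), and mdy, which closes triglyceride synthesis, by -0.63 ± 0.10. The fatty acid synthases FASN1 and FASN2 fell by -0.53 and -0.41. Brummer (bmm), the lipase that opens fat stores, rose by 0.49 ± 0.08. Of 17 genes of glycolysis and sugar storage 4 fell (23.5%, beside 11.8% of all genes) and 1 rose (5.88%, beside 9.71%). Hex-C fell most, by -0.77 ± 0.09. Of the enzymes of purine synthesis, picked after their values were seen, Prat2 fell by -1.58 ± 0.14 and Prat rose by 0.65 (adjusted p = 0.00992).

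Among clock genes 4 of 11 fell (36.4%, beside 11.8% of all genes) and 3 rose (27.3%, beside 9.71%). period (per), the repressor at the core of the clock, went from 7.20, 7.32 and 7.27 to 5.80, 5.78 and 5.80 (-1.47 ± 0.08, adjusted p = 3.44e-11). vri fell by -0.71 ± 0.10 and timeless (tim), the partner of per, by -0.43 ± 0.09, while its other probe set changed by -1.19. Clk, an activator of per and tim, rose by 0.48 ± 0.13 (adjusted p = 0.0112), jet by 0.43 ± 0.10 and cwo by 0.31 ± 0.09. The calls of Clk and cwo were lost with 1 array left out (adjusted p up to 0.0684 and 0.0905), and the other probe set of cwo changed by -0.24. Ramped and unramped flies were frozen at the same time of day. Whether the state of their clocks differed was not tested.

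All 13 measured immune genes, of 29 in the list, had a change below 0, from -1.47 to -0.05 with a median of -0.46. Of the 13, 4 fell (30.8%, beside 11.8% of all genes) and 0 rose (1 fell on all 24 arrays). The 4 hemocyte markers, of blood cells, also changed by -0.42 to -0.12 and 1 of them, He, was called, with a mean of 6.33 to 6.54 without and 5.93 to 6.32 with the ramp. Their part in the immune falls was not tested. pirk, an inhibitor of the Imd pathway, fell from 8.01, 8.58 and 7.89 to 6.38, 6.76 and 6.95 (-1.47 ± 0.20, adjusted p = 1.1e-05). PGRP-SB1 fell by -1.25 ± 0.38, with overlapping groups, and its adjusted p of 0.0253 went up to 0.184 with 1 array left out. Of 32 measured genes of ion channels and synapses 4 fell (12.5%) and 1 rose (3.12%), with a median change of -0.04. Over all genes 11.8% fell and 9.71% rose. Single genes of neurons and development moved as well. The potassium channel genes Irk1 and sei fell by -0.99 ± 0.07 and -0.58 ± 0.09, and the calcium channel subunit Ca-beta by -0.65 ± 0.14, while its other 2 probe sets changed by -0.01 and 0.08. water witch (wtrw), a TRP channel, rose by 0.67 ± 0.08. The glial regulator repo, picked after its value was seen, fell from 7.86, 7.75 and 8.02 to 5.87, 6.21 and 6.34 (-1.74 ± 0.13), and the transcription factor salm by -1.50 ± 0.11. Of the markers of other tissues 0 of 3 neuronal, 0 of 5 eye and 0 of 14 testis markers were called. Of 5 gut markers 1 fell, Jon25Bi by -0.66 (adjusted p = 0.0322), and of 11 accessory gland markers 1 fell. Of 7 muscle markers 2 rose, TpnC4 by 0.79 ± 0.245 and sls by 0.23 ± 0.08, both lost with 1 array left out (adjusted p up to 0.188 and 0.309).

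Large groups of housekeeping genes gave few calls. limma called 0 of 40 measured cytosolic ribosomal proteins, of which 1 had an unadjusted p under 0.05, and 0 of 75 respiratory chain genes, of which 3 had. These lists hold 92 and 90 genes, so that most ribosomal proteins were not measured. With only the 6 arrays of the ramp the calls were also 0 and 0. Taking the mean of all probe sets of a gene, 1 ribosomal protein rose and 1 respiratory gene fell. Ribosomal proteins changed by -0.08 to 0.25, from a median level of 13.3. Of 69 mitochondrial ribosomal proteins 1 rose and 5 fell, and of 45 translation factors 2 rose and 2 fell. In ribosome biogenesis 5 of 21 fell and 2 rose, Polr1B, a subunit of RNA polymerase I, by -0.68 ± 0.17 and Nop17l by 1.64 ± 0.11. Of 28 seminal fluid genes 1 fell, Acp62F, by -0.57 ± 0.09. In these lists the share called lay under the 21.5% of all genes, except in ribosome biogenesis.

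Flies from the constant 25 °C regime gave a ramp response close to that of the fluctuating flies. There 3467 probe sets were called (18.5%), and 2383 were called in both, all with the same sign. That is 76.5% of the calls in fluctuating and 68.7% of those in constant flies. Across 18769 probe sets, which share the array design, the changes of the regimes correlated at r = 0.88, and they rest on separate arrays. Of the 3116 probe sets called in fluctuating flies 3064 changed by an amount within 0.5 log2 units of that in constant flies, and 6 differed by more than 1. Since most calls are small, 1754 of them lie within 0.5 log2 units of no change at all.

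Each regime had a single cabinet of its own, so that a difference between regimes cannot be told apart from one between cabinets. Tested directly, the difference between the regimes called 0 probe sets in limma, where 711 had an unadjusted p under 0.05. limma with a variance trend called 1 and limma with array weights on all 24 arrays, a fit whose weights did not converge fully, 102. The median SE of a difference was 0.15. For Hsp68 the difference was -0.04 ± 0.10, for Hsp26 -0.19 ± 0.17 and for Hsp27 -0.17 ± 0.11 (fluctuating minus constant, adjusted p = 0.969 to 0.974). The lowest p was that of CG12795, which rose by 2.44 ± 0.07 in fluctuating and by 3.05 in constant flies, a difference of -0.61 ± 0.10 (adjusted p = 0.0971). lectin-33A, a C-type lectin, came next. It rose by 1.17 ± 0.20 in fluctuating flies, from 4.88, 5.10 and 5.12 to 6.32, 5.87 and 6.41, and changed by -0.14 in constant flies, a difference of 1.31 ± 0.28 (adjusted p = 0.832). IP3K2, an inositol phosphate kinase, had a difference of 0.44 ± 0.10 (adjusted p = 0.969).

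**Figure D5:**
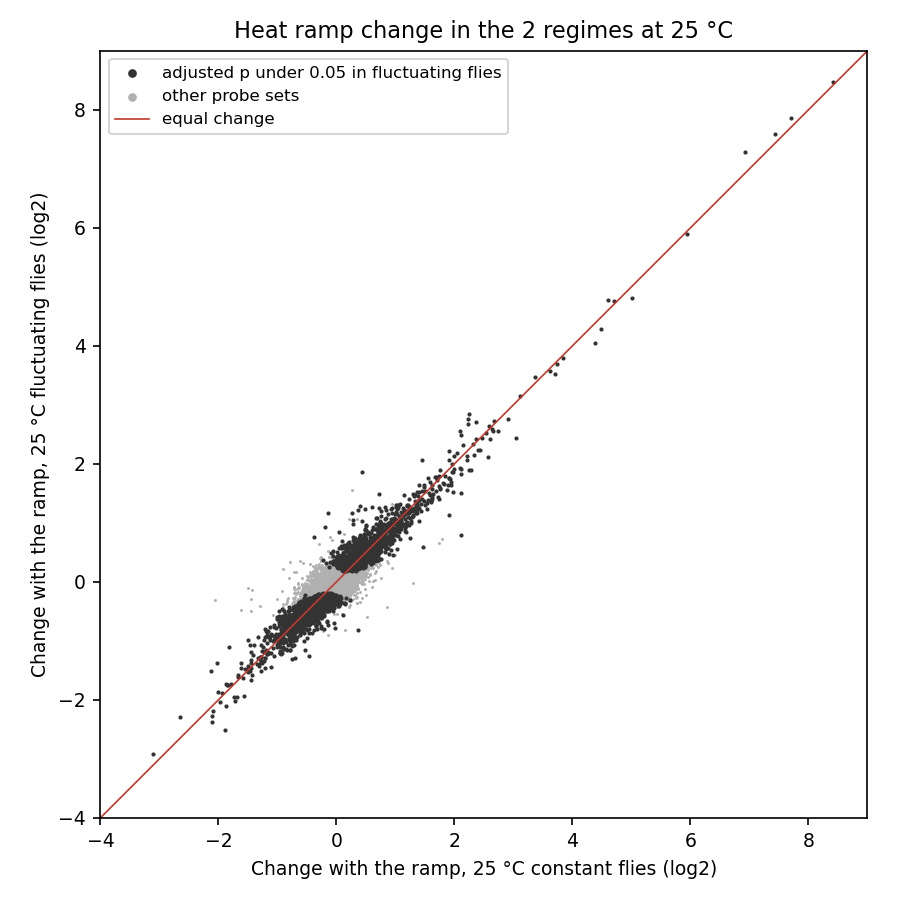
Change with the heat ramp (log2) in flies from the fluctuating (vertical) against those from the constant (horizontal) 25 °C regime for 18769 probe sets. Dark points were called in fluctuating flies (3116); they lie along the red line of equal change, 3064 of them within 0.5 log2 units of it.

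Fluctuating flies from a mean of 15 °C also had a cabinet of their own. Against these flies, which have 2 ramped arrays in the model, the difference called 13 probe sets (0.0693%), 2 higher (0.0107%) and 11 lower (0.0586%). This rested on single arrays of the 15 °C flies: without their ramped replicate 1 it called 528 and without replicate 2 it called 1, and on all 24 arrays it called 0. Without either replicate the 15 °C flies have 1 ramped array, which is taken to vary as the arrays of the other groups do. CG8745, which fell by -2.51 in 25 °C flies, fell by -1.27 in 15 °C flies, a difference of -1.24 ± 0.18 (adjusted p = 0.00606). LManIII, a lysosomal mannosidase, fell from 7.497, 6.84 and 6.91 to 5.15, 5.33 and 5.55 in 25 °C flies (-1.74 ± 0.155) and changed by -0.30 in 15 °C flies. Its unramped level was 7.08 at 25 °C and 5.27 at 15 °C, and its ramped levels were 5.34 and 4.97. per fell by -1.47 at 25 °C and by -0.74 at 15 °C, from unramped levels of 7.26 and 6.19. Gart, a further enzyme of purine synthesis, rose by 0.46 ± 0.15 in 25 °C flies, a call lost with 1 array left out (adjusted p up to 0.279), and by 1.80 in 15 °C flies. Hsp68 rose by 5.49 in 15 °C flies and Hsp26 by 4.05, and neither difference from the 25 °C flies was called.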

How the data were processed

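Expression was measured on Affymetrix Drosophila Genome 2.0 arrays. The deposited values are log2 expression levels, 1 per probe set and array, which the authors made with GCRMA, a method that corrects background by probe sequence, normalises the arrays by quantiles and summarises the probes of a set. Low levels are compressed by that method and very bright probe sets can saturate, so that large fold changes can be understated. Columns were assigned to groups by sample title. Of 18952 probe sets 183 controls were left out and 18769 tested. By the platform annotation 13647 carried 1 gene symbol, 402 several and 4720 none. A gene was represented by its single-symbol probe set with the highest mean (11982 genes), and gene order came from the RefSeq annotation of Release 6 plus ISO1 MT.

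A linear model of 8 group means over 23 arrays was used (limma 3.58.1, run under R 4.3.3), with Benjamini-Hochberg adjustment and a threshold of 0.05. Differences of the ramp change between regimes were contrasts in the same fit. Tables and plots were made in Python 3.11.15 with numpy 2.4.6, pandas 2.3.3, scipy 1.17.1 and matplotlib 3.10.9. The fitting script was checked on simulated data. Genes were named when they were among the 15 that rose or the 15 that fell most with groups that did not overlap, were heat shock proteins, were among the 3 strongest called genes in either direction of one of 32 lists, or had the smallest p in a difference between regimes. Hsf was named in any case, and other genes named were picked after their values were seen. The groups and lists were chosen with earlier results of these data known. A cyclophilin pair, a cuticle protein, a prohibitin and a gene of unsure role were taken off lists they had entered by name. Alternatives covered the arrays in the fit, the replicate number as a block, a filter on dim probe sets, the variance model, the normalisation, the probe set that stands for a gene and each array left out in turn. The files give no read depth, since arrays have none, and the number of arrays limits the precision. Scan dates and other batches were not given in the sources used here. Promoter sequences were not analysed here.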

Additional observations from a re-analysis of the deposited data

Results flagged for a closer look

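Of 13 probe sets called in the difference, 8 stand for a gene, 4 carry no single symbol, and 1 is a further probe set of elB (-0.53, adjusted p = 0.043). For these 8 genes the change with the ramp in 25 °C fluctuating flies differed from that in 15 °C fluctuating flies by a test of the difference itself (limma, adjusted p under 0.05 over all probe sets). Regime and cabinet cannot be told apart in this test. Each difference is the change at 25 °C minus that at 15 °C on the log2 scale. CG8745 fell further at 25 °C, by -2.51 against -1.27, a difference of -1.24 ± 0.18 (SE, adjusted p = 0.00606). LManIII had a difference of -1.44 ± 0.23 (adjusted p = 0.0141), per of -0.73 ± 0.13 (adjusted p = 0.0212), and the transcription factor salm, which fell by -1.50 at 25 °C and by -0.57 at 15 °C, of -0.93 ± 0.16 (adjusted p = 0.0212). In 25 °C constant flies these 4 genes fell by 1.90, 1.87, 1.49 and 1.28 log2 units.

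The cytochrome P450 gene Cyp12d1-d rose less at 25 °C, by 0.88 against 1.88, a difference of -1.003 ± 0.16 (adjusted p = 0.00992). Gart differed by -1.33 ± 0.23 (adjusted p = 0.0212). CG12795 rose more at 25 °C, by 2.44 against 1.83, a difference of 0.61 ± 0.105 (adjusted p = 0.0212), and CG32243 rose by 0.54 at 25 °C and changed by -0.08 at 15 °C, a difference of 0.61 ± 0.11 (adjusted p = 0.0386). All 8 calls were lost without ramped replicate 2 of the 15 °C flies (adjusted p = 0.0805 to 0.299) and on all 24 arrays (adjusted p = 0.341 to 0.936). With 1 of the other 9 arrays of the contrast left out, apart from ramped replicate 1 of the 15 °C flies, 2 to 5 of the 8 were lost. Without that replicate the calls stood, but the 15 °C flies then have 1 ramped array, whose spread is taken from other groups, so that this is no support for them. With only the arrays of the contrast 6 were lost (adjusted p = 0.157 to 0.279) and CG8745 and salm stood (0.0168 and 0.0437). With the replicate number as a block CG12795 (0.0613) and CG32243 (0.0743) were lost.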

How the results depend on the processing

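The 15 genes that rose most and the 15 that fell most kept their direction under all these alternatives. They were chosen for large changes and groups that do not overlap, so that leaving out an array could not turn a sign. Their kept direction is therefore no check of the result. The number of calls rested mainly on the array left out of the model. With all 24 arrays 372 probe sets were called (191 higher, 181 lower), and with array weights on the same arrays, which did not converge fully, 6176 (2710 and 3466). Leaving out each of the 6 arrays in turn gave 2440 to 2819 calls (1190 to 1399 higher, 1250 to 1587 lower). Other settings stayed within 1.5 times the 3116 calls. Of 223 named results, some of which were never called, 150 lost their call on all 24 arrays and 9 with each array centred on its median. With only the 6 arrays of the ramp 17 were lost, and 6 (differences between regimes) with only the arrays of those regimes. With the replicate number as a block in such fits 32 were lost. Of the 157 called genes that met the naming rule, 29 lost their call with 1 array left out. Of 64 list counts 50 moved on all 24 arrays.

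The difference from constant flies, with 0 calls, gave 1 (lower) with a variance trend, 102 with array weights (59 higher, 43 lower), and 0 to 1 (0 to 1 lower) with an array left out. The difference from 15 °C fluctuating flies, with 13 calls, gave 0 on all 24 arrays (0 higher, 0 lower), 4 with only the arrays of the contrast (0 higher, 4 lower), 43 with array weights (10 and 33), 8 with centred arrays (1 and 7), 4 higher on 22 arrays and 5 higher after a further quantile normalisation. With an array left out it gave 1 to 528 (0 to 116 higher, 1 to 412 lower). Some of these settings hold fewer arrays by construction, and the cause was not tested otherwise.

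Arrays of the same replicate number did not deviate together (r of residuals -0.14, 0.00 and 0.10, and 0 of 3 ramped arrays closest to their own number), so that the numbers were not taken to pair the arrays. With the replicate number as a block, 1399 probe sets were higher and 1575 lower with the ramp, 0 differed from constant flies, and 11 from 15 °C flies (1 higher). With the block and only the arrays of the contrast the last count was 2 (0 higher, 2 lower).

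Signs turned in 5 genes that were not called. With an array left out CG7409 ranged from -0.03 to 0.115, Hsc70-2 from -0.11 to 0.143, Hsp60B from -0.2056 to 0.0751, Hsp60C from -0.1333 to 0.0853 and Trap1 from -0.1136 to 0.0123. Hsc70-2 was also at -0.0169 after quantile normalisation and Hsp60C at 0.0363 with array weights. The difference of Cyp12d1-d from 15 °C flies turned to 0.0935 on all 24 arrays. The planned search for promoter motifs was not run.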

Other observations

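Across all 4 regimes the ramped level of Hsp68 lay between 13.95 and 14.19 on single arrays, not counting the 15 °C fluctuating array left out of the model. The unramped level was 8.14 to 8.29 in 25 °C fluctuating flies and 8.55 to 8.80 in 15 °C constant flies. Of the 3116 probe sets called with the ramp in 25 °C fluctuating flies, 350 carried no gene symbol or several. Among these, 169 were higher and 181 lower.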
